A study of Mus musculus with 2 samples.

Results

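Atp7a and 9 further genes of copper handling, Slc31a1, Slc31a2, Atox1, Ccs, Sod1, Commd1, Sco1, Mt1 and Mt2, were read by symbol from an RNA-seq count table of 56791 genes. They were followed in RAW264.7 cells, a wild-type mouse monocyte and macrophage leukaemia line, under M2 polarization, which in macrophages follows IL-4. The FAPD10-exos culture received 20 ng of recombinant mouse IL-4 together with 10000000 particles of a preparation named FAPD10-exos for 24 h. The other culture, labelled Vehicle, received the same IL-4, with no FAPD10-exos listed. The labels give no volumes. Each group held 1 library, of 37196241 counts in the FAPD10-exos and 36152743 counts in the Vehicle library, and both came from a single cell line. No value below therefore has a replicate check, and no p-value was computed. All 10 genes had counts in both libraries and all 10 had a mean of at least 1 CPM, that is 1 count per 1000000 of the scaled library size, as did 12264 genes of the table, called measured here. The genes were chosen by symbol with the ratio of FAPD10-exos to Vehicle counts already known, so their ratios describe these libraries.

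Copper is both a cofactor and a toxin, and cells pass it from protein to protein. Slc31a1 encodes the plasma membrane copper importer CTR1. Atox1 is the cytosolic chaperone that hands copper to Atp7a, a P-type ATPase that pumps it into the secretory pathway and, when copper is high, out of the cell. Ccs is the chaperone that loads the superoxide dismutase Sod1, Sco1 delivers copper to cytochrome c oxidase in mitochondria, and the metallothioneins Mt1 and Mt2 bind surplus copper and zinc. In macrophages, copper pumped by ATP7A into phagosomes is known to take part in killing bacteria.

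The following sequences show matches to a copper-binding motif in Atox1 and Atp7a. In Atox1 and in the N-terminal repeats of Atp7a, copper is bound by a pair of cysteines within a short motif. It was searched in frame as the codons ATG and ACN, a cysteine codon (TGT or TGC), a pair of codons of any kind and a further cysteine codon. The search found 1 match in the 68 codons of Atox1 and 5 in the 1491 codons of Atp7a, starting at codons 17, 180, 386, 488 and 564. A copper site that departs from this pattern is missed, so the matches are not a count of the copper-binding repeats. Coding sequences are those of the principal transcripts of GENCODE M21 on GRCm38. Capitals in Atox1 mark the motif, and the sequences of Atp7a are the matches alone.
Atox1 coding sequence, chromosome 11: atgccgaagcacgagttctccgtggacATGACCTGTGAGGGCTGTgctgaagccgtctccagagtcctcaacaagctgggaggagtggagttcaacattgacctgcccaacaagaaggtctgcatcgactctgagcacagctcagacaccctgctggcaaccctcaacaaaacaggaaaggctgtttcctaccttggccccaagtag
Atp7a at codon 17, chromosome X: ATGACATGTATTTCCTGT
Atp7a at codon 180, chromosome X: ATGACCTGCCATTCATGT
Atp7a at codon 386, chromosome X: ATGACTTGTAATTCTTGT
Atp7a at codon 488, chromosome X: ATGACCTGTGCTTCTTGT
Atp7a at codon 564, chromosome X: ATGACGTGTGCTTCCTGT

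The metallothioneins are shown because their values rest on telling 2 like transcripts apart. Each had 20 cysteine codons, in capitals, among 61 codons. The coding sequences were identical at 148 of 186 aligned bases (79.6%), and the longest run shared by both was 20 bases.
Mt1 coding sequence, chromosome 8: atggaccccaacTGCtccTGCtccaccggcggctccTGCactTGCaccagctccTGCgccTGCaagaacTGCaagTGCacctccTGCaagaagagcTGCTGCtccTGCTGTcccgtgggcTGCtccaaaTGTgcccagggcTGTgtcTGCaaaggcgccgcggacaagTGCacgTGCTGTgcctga
Mt2 coding sequence, chromosome 8: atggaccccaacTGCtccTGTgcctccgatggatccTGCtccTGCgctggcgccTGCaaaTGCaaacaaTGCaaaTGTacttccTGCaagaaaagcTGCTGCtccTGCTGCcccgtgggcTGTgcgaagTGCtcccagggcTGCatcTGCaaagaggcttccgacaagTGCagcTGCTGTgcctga

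Metal-response elements, the sites through which the zinc sensor MTF1 induces metallothioneins, were searched as TGCACNC and TGCGCNC on both strands in the RefSeq windows of 250 bases before to 50 after each annotated start, on GRCm38.p6. The Mt1 window held 3 matches and the Mt2 window 4, in capitals, with matches on the minus strand shown as they read on the plus strand. At least 3 matches were present in 1.97% and at least 1 in 25.7% of 32851 windows. Of the 9 genes with a window, Atp7a had 2 matches, Slc31a2 had 1, Commd1 had 1 in each of its windows, and Slc31a1, Atox1, Sod1 and Sco1 had 0. The matches describe the letters of the windows only.
Mt1 window, chr8:94178839-94179138, plus strand: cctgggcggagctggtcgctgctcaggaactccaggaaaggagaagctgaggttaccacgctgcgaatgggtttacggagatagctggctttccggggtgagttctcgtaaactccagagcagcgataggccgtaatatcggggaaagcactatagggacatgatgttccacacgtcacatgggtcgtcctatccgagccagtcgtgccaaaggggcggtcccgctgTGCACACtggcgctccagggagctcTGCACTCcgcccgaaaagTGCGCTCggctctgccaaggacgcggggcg
Mt2 window, chr8:94172368-94172667, plus strand: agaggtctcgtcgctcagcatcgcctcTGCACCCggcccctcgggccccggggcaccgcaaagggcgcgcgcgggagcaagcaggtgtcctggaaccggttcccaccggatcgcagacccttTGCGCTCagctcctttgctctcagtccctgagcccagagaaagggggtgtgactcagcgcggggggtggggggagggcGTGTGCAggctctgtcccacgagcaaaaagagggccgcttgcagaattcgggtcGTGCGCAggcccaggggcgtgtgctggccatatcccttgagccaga

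Both libraries had the profile of macrophages. All 9 macrophage markers were measured, with a summed level of 2220 CPM in the FAPD10-exos and 2425 CPM in the Vehicle library. Of 13 markers of fibroblasts, endothelium, epithelium, skeletal muscle and T cells, 0 were measured and 7 had no count in either library, among them Col1a1, Col1a2, Dcn, Epcam, Krt18, Myod1 and Cd3e. The most abundant was Lyz2, at 1013 CPM in the FAPD10-exos and 1110.0 CPM in the Vehicle library, and single markers moved in both directions. Adgre1 was 2.91-fold and Spi1 1.60-fold higher in the FAPD10-exos library, and Ptprc had a ratio of 0.643. The part of these changes in the results was not tested. The fibroblast list summed to 0.112 CPM with FAPD10-exos against 0.106 CPM with Vehicle, the endothelial list to 0.731 CPM with FAPD10-exos against 0.265 CPM with Vehicle and the muscle list to 0.281 CPM with FAPD10-exos against 0.265 CPM with Vehicle. The epithelial and T cell lists were at 0. Where no read was counted, up to 3 counts are allowed, 0.0843 CPM in the FAPD10-exos and 0.0794 CPM in the Vehicle library.

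Among the copper genes, Atp7a was far lower in the FAPD10-exos library while the chaperones Atox1 and Ccs, the enzyme Sod1, Commd1 and Mt1 were higher. A gene was called higher or lower if its ratio, FAPD10-exos over Vehicle, was at least 1.5-fold and its 95% counting interval excluded 1. By this rule 5 of the 10 genes were higher and 1 was lower, beside 17.1% higher and 19.8% lower among all 12264 measured genes. The background shifts with the scaling: higher genes made up 46.3% of the called genes here, 32.3% after scaling by total counts and 53.8% after upper-quartile scaling. The importers Slc31a1 and Slc31a2, the mitochondrial chaperone Sco1 and Mt2 lay between the thresholds. Intervals, given in parentheses, cover counting error only and treat counts as independent reads. In bulk RNA, fewer cells that express a gene and less RNA per cell cannot be told apart.

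**Figure D1:**
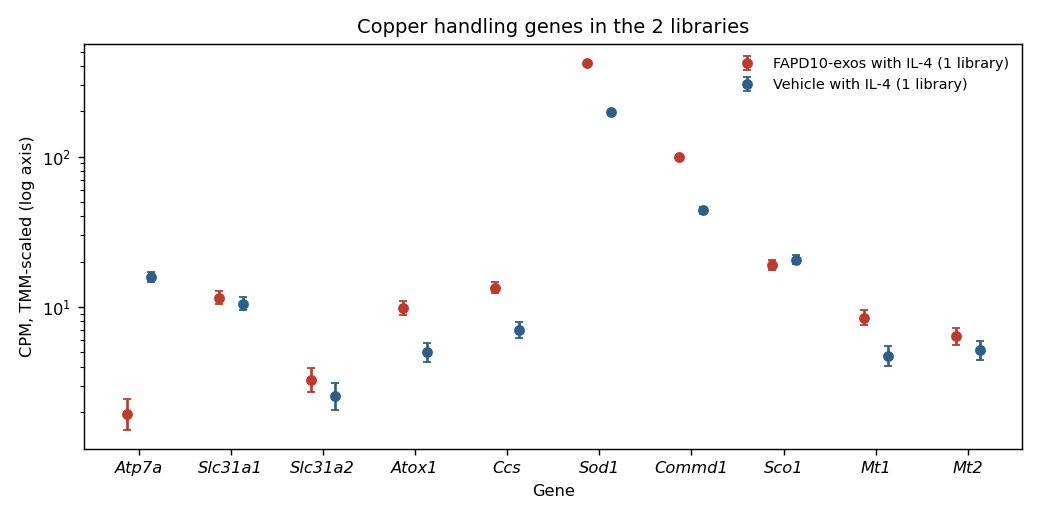
Level of each copper handling gene in CPM, on a log axis, in the FAPD10-exos library (left point of each pair) and the Vehicle library (right point). Bars are 95% exact Poisson intervals of the counts, from 1 library per group. The intervals lie apart for Atp7a, which was lower in the FAPD10-exos library, and for Atox1, Ccs, Sod1, Commd1 and Mt1, which were higher there.

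Atp7a had 69 counts in the FAPD10-exos and 597 in the Vehicle library, or 1.94 CPM (1.51 to 2.45) with FAPD10-exos against 15.8 CPM (14.6 to 17.1) with Vehicle. The FAPD10-exos library thus held the gene at a level that was 8.15-fold lower (6.34 to 10.6). The interval still excluded 1 when counts were halved to allow for both ends of read pairs having been counted, with a ratio of 0.0850 to 0.177. Atp7a made up 0.329% of the counts of the 10 copper genes in the FAPD10-exos and 5.03% in the Vehicle library.

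This difference did not rest on the scaling of the libraries, since Atp7a can be set against another copper gene within the same library. Against the importer Slc31a1 there were 0.168 counts of Atp7a per count in the FAPD10-exos and 1.5 in the Vehicle library, which is 8.91-fold lower (6.66 to 12.0). Against its chaperone Atox1 there were 0.196 counts of Atp7a per count with FAPD10-exos and 3.18 with Vehicle, 16.2-fold lower in the FAPD10-exos library (11.8 to 22.3). Over the 9 possible partners the drop lay between 7.49-fold against Sco1 and 18.5-fold against Commd1. Each drop also holds the change of the partner, and none is corrected for the trend of ratios with gene length described below. In the Vehicle library Atp7a was thus the more counted gene beside Atox1, and in the FAPD10-exos library Atox1 was. The 2 genes differ in length, so these are ratios of counts and not of molecules.

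Among all 12264 measured genes Atp7a had rank 6 from the lowest ratio. The 5 genes below it, Gm47483, Gm38253, Gm10518, Gm26811 and Gm44667, carry predicted-gene symbols and were looked up after their values were seen. They had between 6 and 20 counts in the FAPD10-exos and between 88 and 187 counts in the Vehicle library. Among the 1226 measured genes of like exon length, 7142 to 9469 bases, 0 had a lower ratio than Atp7a, and 35.6% were called lower. The 5 measured genes nearest to Atp7a by their log2 CPM in the 2 libraries were Gm56118, Lysmd3, Nbeal1, Gm28187 and Gm12061, at distances of 0.75 to 0.80 log2 units. Likeness over 2 libraries is a description. Lysmd3, which encodes a membrane protein with a LysM domain, had 2.64 CPM in the FAPD10-exos and 10.4 CPM in the Vehicle library.

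In the coordinates of the deposited table, for which no mouse build is named, Atp7a spans 105070882 to 105168532 on the plus strand of chromosome X. It is protein-coding and was counted over 23 merged exon blocks of 8734 bases, none of which overlaps an exon of another gene. Counts per exon were not analysed here. The nearest gene on its 5' side, Cox7b, a subunit of cytochrome c oxidase on the same strand, ends 4825 bases before Atp7a begins. Cox7b had 201 CPM in the FAPD10-exos and 91.8 CPM in the Vehicle library, with a ratio of 2.19 (2.10 to 2.28), so these adjacent genes stood on opposite sides of 1. Cox7b is short, and 34.5% of measured genes of like exon length were called higher. That share is of 1 of 10 bins by length. Less the median of its bin among 50 narrower ones, it stood at 0.71 in log2 by exon length and at 0.53 by principal transcript length.

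**Figure D2:**
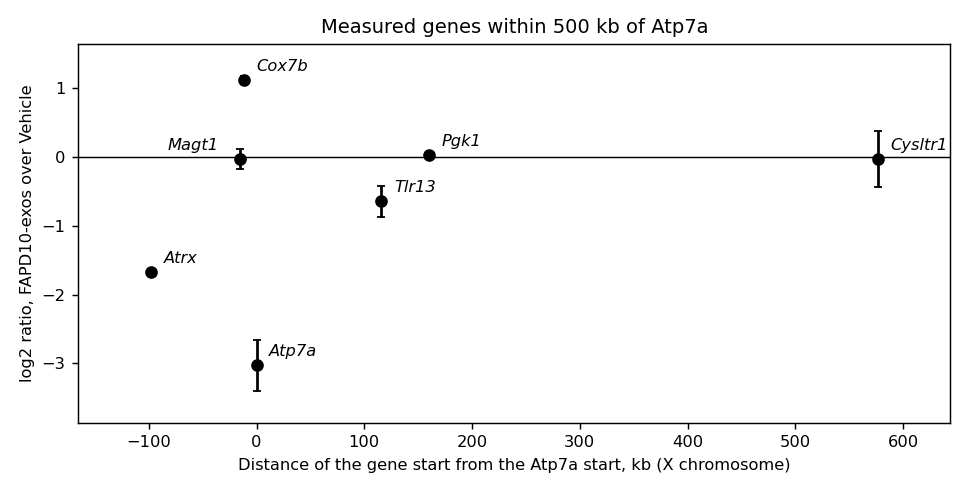
The log2 ratio of FAPD10-exos over Vehicle for Atp7a and the 6 other measured genes within 500 kb of either end of it, against the distance between gene starts in kb. Bars are 95% counting intervals, hidden by the point where narrow. Atp7a is the lowest point, at -3.03, and Cox7b beside it the highest, at 1.13.

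Of 29 other genes within 500 kb, 11 had a count and 6 were measured. Of these 1 was higher and 2 were lower, beside 17.1% higher and 19.8% lower over all measured genes. Atrx, a large chromatin remodeller, was 3.20-fold lower at 199.9 CPM with FAPD10-exos against 640.3 CPM with Vehicle. Tlr13, a sensor of bacterial ribosomal RNA, was 1.56-fold lower at 7.36 CPM with FAPD10-exos against 11.5 CPM with Vehicle. The magnesium transporter gene Magt1 (ratio 0.983), the glycolytic enzyme gene Pgk1 (1.02) and the leukotriene receptor gene Cysltr1 (0.982) lay close to 1. The region thus held genes on both sides, as the plot by distance from Atp7a shows. Less the median of genes of like exon length, Atrx stood at -0.77 and Tlr13 at -0.69 in log2. By principal transcript length they stood at -0.66 and -0.41.

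The liver-type copper ATPase Atp7b, the closest relative of Atp7a, had 0 counts in the FAPD10-exos and 8 counts in the Vehicle library, at or near the detection limit. Of 25 other P-type ATPase genes, 18 were measured, and 12 of these were lower and 0 higher, beside 19.8% lower over the whole set of measured genes. Their median log2 ratio was -0.94, against 0.01 over all measured genes, and was -0.41 after subtraction of the median of genes of like exon length and -0.23 by principal transcript length. Atp13a3, a polyamine transporter, was 2.60-fold lower at 19.4 CPM with FAPD10-exos against 50.4 CPM with Vehicle. The calcium pump gene Atp2b1 was 2.31-fold lower at 113 CPM with FAPD10-exos against 261 CPM with Vehicle, and Atp10d, a phospholipid flippase, was 2.30-fold lower. All 18 lay above Atp7a, which stood at -3.03 on the log2 scale.

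The copper importers were not called in either direction. Slc31a1 had 410 counts in the FAPD10-exos and 398 in the Vehicle library, or 11.5 CPM with FAPD10-exos against 10.5 CPM with Vehicle, a ratio of 1.09 (0.951 to 1.26). Slc31a2, a relative of CTR1 found in endosomes and lysosomes, had 117 counts with FAPD10-exos and 96 with Vehicle, or 3.29 CPM with FAPD10-exos against 2.54 CPM with Vehicle, a ratio of 1.29 (0.980 to 1.71). Both intervals included 1, and that of Slc31a2 reached past 1.5, so a difference of this size was not excluded for it.

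The cytosolic copper chaperones were higher in the FAPD10-exos library. Atox1 had 352 counts with FAPD10-exos against 188 with Vehicle, or 9.89 CPM with FAPD10-exos against 4.97 CPM with Vehicle, a ratio of 1.99 (1.66 to 2.39). Ccs had 479 counts with FAPD10-exos against 267 with Vehicle, or 13.5 CPM with FAPD10-exos against 7.07 CPM with Vehicle, a ratio of 1.91 (1.64 to 2.22). Sod1, the copper and zinc enzyme that Ccs loads, had 14824 counts with FAPD10-exos against 7520 with Vehicle, or 417 CPM with FAPD10-exos against 199 CPM with Vehicle, a ratio of 2.09 (2.04 to 2.15). Per count of Sod1 there were 0.0323 counts of Ccs in the FAPD10-exos and 0.0355 in the Vehicle library, with an interval of 0.780 to 1.06 for the ratio of these. Per count of Sod1 there were 0.0237 counts of Atox1 in the FAPD10-exos and 0.0250 in the Vehicle library, with an interval of 0.792 to 1.14. The calls of Atox1 and Ccs ended after correction for exon length, where Sod1 kept its call, and all 3 ended after that for principal transcript length. Sod1 alone gave 70.6% of the counts of the 10 genes in the FAPD10-exos and 63.3% in the Vehicle library.

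The mitochondrial copper chaperone Sco1 had 676 counts in the FAPD10-exos and 781 in the Vehicle library, or 19.0 CPM with FAPD10-exos against 20.7 CPM with Vehicle, with a ratio of 0.919 (0.828 to 1.02). It stood apart from Atox1 within each library, with 0.521 counts of Atox1 per count of Sco1 in the FAPD10-exos and 0.241 in the Vehicle library, which differ by a ratio of 2.16 (1.75 to 2.67). Sco1 thus did not share the uncorrected ratio of the cytosolic chaperones. The genes differ in length, and with the length trend subtracted they stood closer. By principal transcript length Sco1 stood at -0.23, Atox1 at 0.29 and Ccs at 0.33 in log2. By exon length Sco1 stood at -0.18, Atox1 at 0.57 and Ccs at 0.51, and all these values lay within 1.5-fold.

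Commd1, which takes part in the endosomal sorting of copper ATPases, had the highest ratio of the 10 genes. It had 3540 counts in the FAPD10-exos and 1658 in the Vehicle library, or 99.5 CPM with FAPD10-exos against 43.9 CPM with Vehicle, a ratio of 2.27 (2.14 to 2.41). It lies on chromosome 11 from 22846136 to 22932382 in the table, where 8.37% of its exon length overlaps the genes Commd1b and Zrsr1. Commd1b had 3507 counts with FAPD10-exos against 1986 with Vehicle, a ratio of 1.88. Zrsr1, on the opposite strand, had 917 counts with FAPD10-exos against 1018 with Vehicle, a ratio of 0.957. No source used here gives the strand setting or the handling of shared reads, so the division between these genes is uncertain.

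Of the metallothioneins, Mt1 was called higher and Mt2 was not. Mt1 had 302 counts in the FAPD10-exos and 178 in the Vehicle library, or 8.49 CPM with FAPD10-exos against 4.71 CPM with Vehicle, a ratio of 1.80 (1.49 to 2.18). Mt2 had 228 counts with FAPD10-exos and 194 with Vehicle, or 6.41 CPM with FAPD10-exos against 5.13 CPM with Vehicle, a ratio of 1.25 (1.03 to 1.52), and with counts halved its interval of 0.944 to 1.65 included 1. There were 1.32 counts of Mt1 per count of Mt2 in the FAPD10-exos and 0.918 in the Vehicle library, which differ by a ratio of 1.44 (1.10 to 1.90). With counts halved the interval of 0.973 to 2.14 included 1, so a difference between the pair was not shown.

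The value of Mt2 is uncertain because 73.5% of its exon length overlaps Gm45774 on the opposite strand. Gm45774 had 226 counts in the FAPD10-exos and 194 in the Vehicle library, nearly the counts of Mt2 itself. Mt1, on chromosome 8 from 94905710 to 94906955 in the table, shares no exon base with another gene. The brain metallothionein Mt3 had 2 counts in the FAPD10-exos and 0 in the Vehicle library, and Mt4 had 0 in both.

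Levels can be compared between genes only per length, and were expressed as CPM per kilobase of the exon length in the table. Sod1 stood first at 105 (103 to 107) in the FAPD10-exos and 50.1 (49.0 to 51.3) in the Vehicle library. In the FAPD10-exos library Atox1 followed at 18.3 and Commd1 at 16.8, with intervals that overlapped, then Mt2 at 10.9, Ccs at 7.55 and Mt1 at 6.81, of which the last pair also overlapped. Sco1 at 4.84, Slc31a1 at 2.69, Slc31a2 at 1.62 and Atp7a at 0.222 closed the order, each below the interval of the gene before it. In the Vehicle library the order was Sod1, Atox1 at 9.20, Mt2 at 8.73, Commd1 at 7.39, Sco1 at 5.27, Ccs at 3.96, Mt1 at 3.78, Slc31a1 at 2.46, Atp7a at 1.81 and Slc31a2 at 1.25. There the intervals of Atox1 and Mt2 overlapped, as did those of Mt2 and Commd1 and those of Ccs and Mt1. Atp7a was thus last of the 10 in the FAPD10-exos library and above Slc31a2 in the Vehicle library. Sod1 has 3970 bases of exons in the table but a principal transcript of 641 bases in GENCODE M21, so its level per length depends on the gene model. The order of the others does too. Per kilobase of principal transcript, Commd1 at 22.1, Atox1 at 18.3, Mt1 at 15.5, Ccs at 12.6 and Mt2 at 12.5 followed Sod1 in the FAPD10-exos library. In the Vehicle library it was Mt2 at 10.0, Commd1 at 9.73, Atox1 at 9.20 and Mt1 at 8.58, and Atp7a at 3.22 stood above Slc31a1 at 2.83. Atp7a was last in the FAPD10-exos library on both scales.

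Ratios went with length across the whole table, and each gene is to be read beside genes of its size. Over 12264 measured genes Spearman's rho between the log2 ratio and exon length was -0.45, and over the 9966 with a principal transcript length it was -0.60, across genes of the same 2 libraries. The median log2 ratio was 0.44 in the shortest of 10 equal bins and -0.62 in the longest. Atox1 and Mt2 fell in the shortest bin, where 40.8% of genes were called higher, and Ccs and Mt1 in the next, where 34.5% were. Sod1, by exon length, fell in a bin with 14.7% higher, and Commd1 in one with 6.69% higher.

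**Figure D3:**
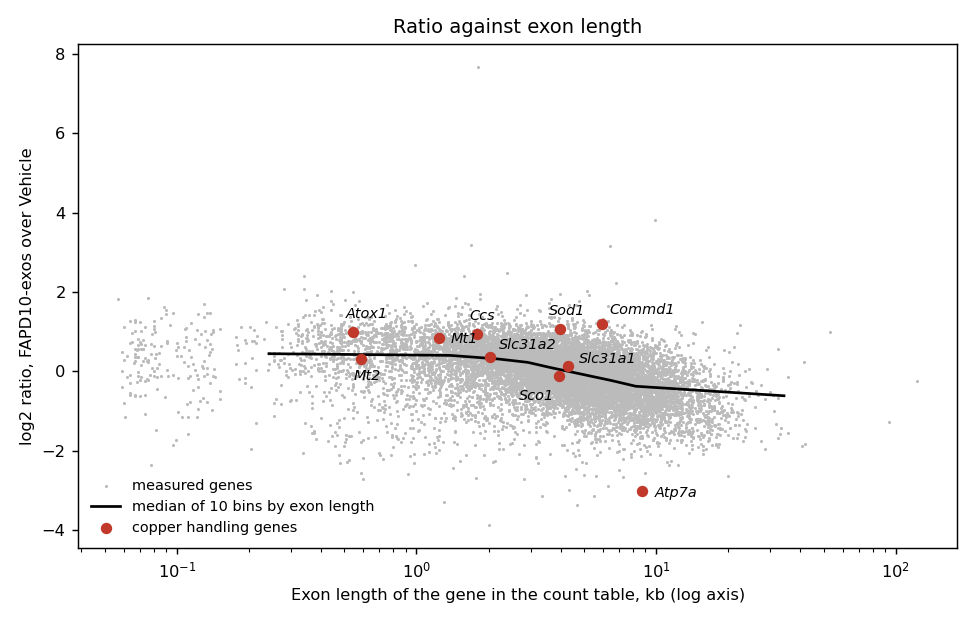
The log2 ratio of FAPD10-exos over Vehicle for each measured gene against its exon length in kb, on a log axis, with the copper handling genes in red and the median of 10 bins as a line. Atp7a lies far under the line at -3.03, where the median of its bin is -0.38, and Commd1 lies above it at 1.18, where the median of its bin is -0.23.

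After subtraction of the median ratio of genes of like length, Atp7a stood at -2.59 in log2 by exon length and at -2.73 by principal transcript length. Fewer of the higher genes passed 1.5-fold. Sod1 at 1.00 and Commd1 at 1.34 did so by exon length, and Commd1 at 1.46 did so by principal transcript length, where Sod1 stood at 0.36. The principal transcript was taken as 4508 bases for Commd1 and 641 bases for Sod1, so both values depend on the gene model. Atox1 stood at 0.57 and 0.29, Ccs at 0.51 and 0.33, and Mt1 at 0.43 and 0.14 by exon and principal transcript length, below the threshold of 1.5-fold. The direction of Mt2 was the opposite, at -0.10 and -0.39. After correction by principal transcript length, Gm10518 alone of the genes with such a length stood below Atp7a, and by exon length 27 genes did. Of the 17 other measured P-type ATPases with a principal transcript length, 5 were at least 1.5-fold lower after this correction, beside 1205 lower genes among 9966 with such a length. Atp10d had no such length and drops out here.

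**Figure D4:**
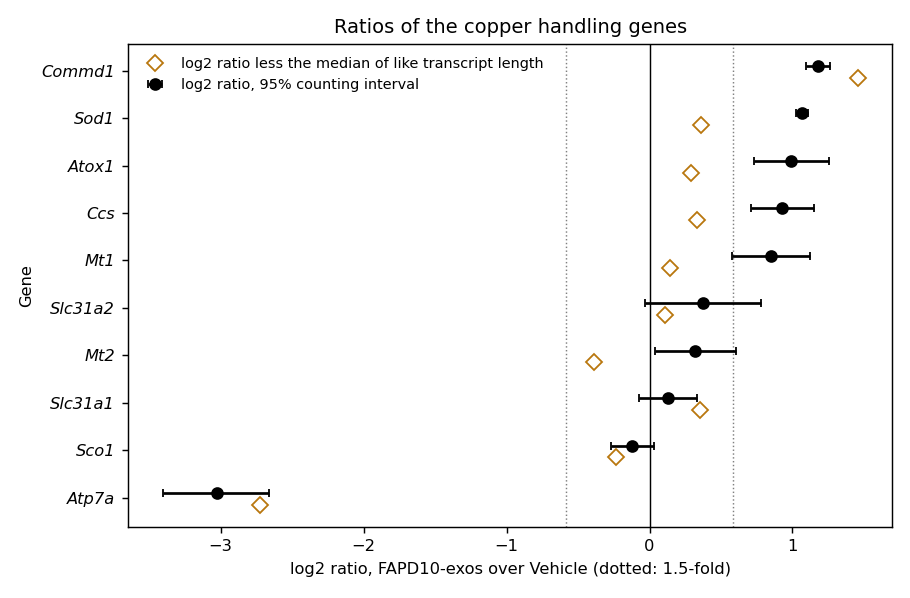
The log2 ratio of FAPD10-exos over Vehicle of each copper handling gene with its 95% counting interval (filled points), beside the same value less the median of measured genes of like principal transcript length (open diamonds). Dotted lines mark 1.5-fold. Atp7a stays at the far left by both values, whereas Sod1, Atox1, Ccs and Mt1 come to lie inside the dotted lines by the second.

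Other genes of copper handling gave a mixed picture, read against 17.1% higher and 19.8% lower over all measured genes. Mitochondrial copper delivery had 5 of 8 measured genes higher and 0 lower, and its median log2 ratio was 0.66. Cox17, the chaperone that passes copper to Sco1, had 298 CPM with FAPD10-exos against 184 CPM with Vehicle and was 1.62-fold higher. Cmc2 was 2.17-fold higher at 21.3 CPM with FAPD10-exos against 9.82 CPM with Vehicle. Coa6 was 1.90-fold higher and Cox19 1.60-fold higher, and these 3 are assembly factors of cytochrome c oxidase. After subtraction of the length trend by principal transcript, 2 of the 8 were still at least 1.5-fold higher. Cox17 stood at 0.86, with a principal transcript taken as 3690 bases, so this value depends on the gene model.

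The relatives of Commd1 and the CCC and retriever complexes, which recycle membrane proteins from endosomes, had 2 of 15 measured genes higher and 0 lower, with a median of 0.22. Ccdc22 was 1.93-fold higher at 99.4 CPM with FAPD10-exos against 51.6 CPM with Vehicle, and Commd5 was 1.63-fold higher at 7.08 CPM with FAPD10-exos against 4.34 CPM with Vehicle. Both are uncertain, since 92.6% of the exon length of Ccdc22 and 66.8% of that of Commd5 overlaps other genes. Commd8 and Commd9 had ratios of 1.47 and 1.43, below the threshold. After correction by principal transcript length Ccdc22 at 0.83 and Commd8 at 0.77 in log2 passed 1.5-fold, whereas Commd5 stood at 0.11. By that correction 2 other genes of the list were at least 1.5-fold lower. By exon length Ccdc22 stood at 0.87, Commd5 at 0.36 and Commd8 at 0.54. Commd1 thus had a higher ratio than each of the 15.

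Copper enzymes other than Sod1 had 0 of 6 measured genes called in either direction, and 9 of the 18 listed had no count. The ferroxidase ceruloplasmin, Cp, had 35.3 CPM with FAPD10-exos against 40.2 CPM with Vehicle, a ratio of 0.878. The peptide-amidating enzyme gene Pam had a ratio of 0.883, and mt-Co1, the catalytic subunit of cytochrome c oxidase, had one of 0.874. Loxl3, a lysyl oxidase, had 5.20 CPM with FAPD10-exos against 3.47 CPM with Vehicle, a ratio just under the threshold (1.19 to 1.89). After correction by principal transcript length Loxl3 stood at 0.81 in log2 and passed 1.5-fold, where Sod1 stood at 0.36. In the other direction mt-Co2, with an uncorrected ratio of 0.898, then stood at -0.77 and passed 1.5-fold lower. By exon length Loxl3 stood at 0.63, mt-Co1 at -0.59 and mt-Co2 at -0.63, each past 1.5-fold.

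Among metal-responsive genes the targets stood on different sides. Mtf1, the transcription factor that senses zinc and drives Mt1 and Mt2, had 13.6 CPM with FAPD10-exos against 17.6 CPM with Vehicle, a ratio of 0.773. Its target Slc30a1, a zinc exporter, was 1.92-fold lower at 5.54 CPM with FAPD10-exos against 10.6 CPM with Vehicle. Gclc, the first enzyme of glutathione synthesis, was 1.52-fold lower at 24.9 CPM with FAPD10-exos against 37.8 CPM with Vehicle. Of the 3 measured genes 2 were lower, and after correction by principal transcript length 0 were. Steap3, the single measured gene of 5 metal reductases, had 50 counts with FAPD10-exos against 65 with Vehicle, with an interval of 0.553 to 1.20 for the ratio.

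**Figure D5:**
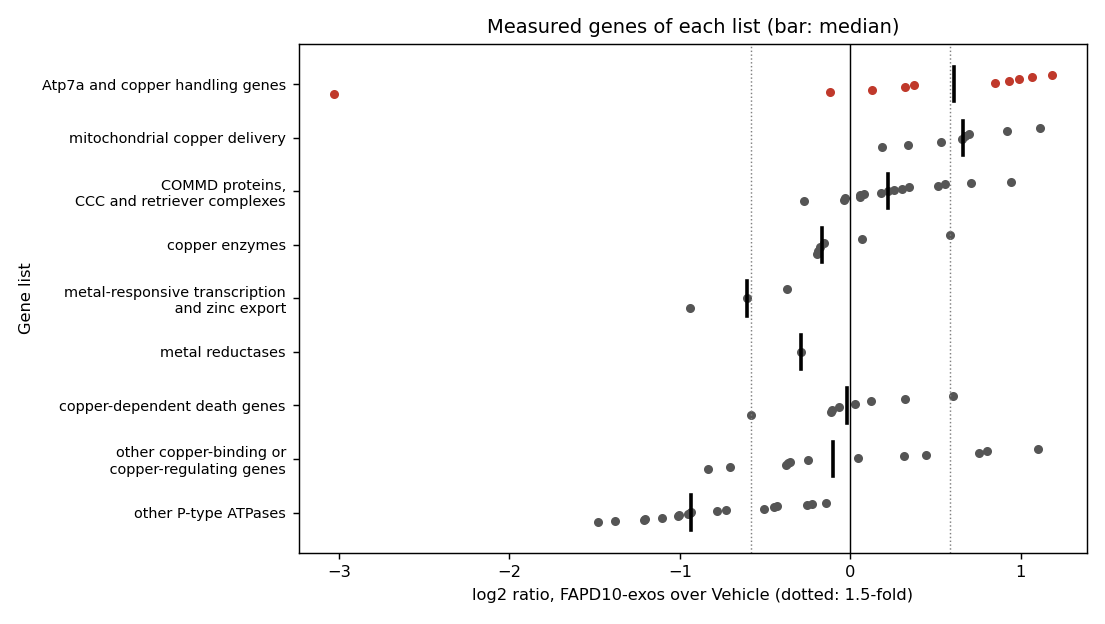
The log2 ratio of FAPD10-exos over Vehicle of every measured gene in 9 gene lists, 1 point per gene, with the list's median as a black bar and dotted lines at 1.5-fold. Atp7a is the single point near -3, below each of the 18 measured P-type ATPases, while the medians of the copper handling genes and of mitochondrial copper delivery lie at 0.61 and 0.66.

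Genes of copper-dependent cell death, in which copper binds lipoylated enzymes of the mitochondrial matrix, had 1 of 8 measured genes higher and 0 lower, with a median of -0.02. Fdx1, the ferredoxin that acts upstream of lipoylation, was 1.52-fold higher at 4.13 CPM with FAPD10-exos against 2.73 CPM with Vehicle. With scaling by total counts or by median of ratios 0 of the 8 were higher and 1 was lower, and after either length correction 0 were higher. The ratio was 1.25 for Dld, a lipoamide dehydrogenase, and 1.09 for Lipt1, a lipoyl transferase. Of 12 further measured genes that bind or regulate copper, 3 were higher and 2 lower. S100a13, a small calcium and copper binding protein, was 2.15-fold higher at 39.8 CPM with FAPD10-exos against 18.5 CPM with Vehicle. The glutaredoxin gene Glrx was 1.69-fold higher and Cuta 1.74-fold, the last uncertain with 39.2% of its exon length in other genes. Xiap, an inhibitor of caspases that also binds copper, was 1.79-fold lower at 33.4 CPM with FAPD10-exos against 59.6 CPM with Vehicle, and Aplp2, a relative of the copper-binding amyloid precursor, was 1.63-fold lower. After correction by principal transcript length 0 of these 12 genes were 1.5-fold higher or lower.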

How the data were processed

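RNA was sequenced from 2 cultures of RAW264.7 cells, 1 library each. The authors deposited raw read counts per gene symbol for both libraries in 1 table, which per the file headers has the layout of featureCounts. The submitters' processing notes name featureCounts, STAR 2.5.3a and fastp 0.23.4, with the build GRCh38, which is human whereas the symbols are mouse. No source used here gives the strand setting or says how multiply mapped or shared reads were counted. Table columns carry the sample descriptions of the labels.

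TMM factors from edgeR 4.0.16 under R 4.3.3 were 0.957 (FAPD10-exos) and 1.05 (Vehicle), so that 1 CPM was 35.6 and 37.8 counts. With 1 library per group no test could be fitted. Ratios carry an exact 95% interval (Clopper-Pearson, on the FAPD10-exos share of the gene's counts), levels an exact Poisson interval, and ratios between 2 genes within libraries the conditional exact interval of the odds ratio. Where 1 of the counts was 0, 0.5 was added to both for the point value. Even numbers made up 76.3% of FAPD10-exos and 75.1% of Vehicle counts from 1 to 50, so pairs may have been counted at both ends, and halved counts were used as an alternative, for ratios within libraries after the data were seen. The length trend was removed by cutting the genes into 50 equal bins by length and subtracting the median log2 ratio of each bin. The principal transcript was the best-ranked one of the annotation, and the longest where ranks tied. The interval and the calling rule were tried on simulated independent counts with known ratios, scaled by total counts. That simulation held no length trend, no spread between replicates and no pairs counted at both ends, so it does not speak to these.

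The genes and lists were chosen with earlier results of these data known. All 10 copper genes are named, with, per further list, up to 4 measured genes of the largest log2 ratio in either direction with at least 100 counts in total, fixed genes such as Atp7b, Cox17, Mtf1, Cox7b and Pgk1, the neighbours of Atp7a with at least 100 counts in total, and the 5 genes most like Atp7a. Aplp2, Steap3, Mt3, Mt4, Commd1b, Zrsr1, Gm45774, Vps35l, Commd6 and mt-Co2 were named after their values were seen. Some genes that the rule selects are not reported here. Alternatives were scaling by total counts, median of ratios (DESeq2 1.42.0) or upper quartile, the filter set at 10 CPM or left out, a 2-fold threshold, halved counts, 1 CPM added, and a correction for length. The other software was scipy 1.17.1, numpy 2.4.6, matplotlib 3.10.9 and pandas 2.3.3 under Python 3.11.15.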

Additional observations from a re-analysis of the deposited data

How the results depend on the processing

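No paired analysis was possible because each group held 1 library, and no library could be left out. Atp7a lay between -3.15 and -2.51 in log2 under all scalings, the addition of 1 CPM (-2.51) and both length corrections (-2.59 by exon length). Scaling by total counts moved every log2 ratio by -0.13. Under it 1458 genes of the table were higher and 3060 lower. Mitochondrial delivery then had 2 genes higher, the COMMD list 1, and the copper-dependent death list 0 higher and 1 lower. Median of ratios also gave 0 higher and 1 lower death genes, beside 1879 higher and 2630 lower genes of the table. Upper quartile gave 1 copper enzyme higher and 1 metal-responsive gene lower, beside 2480 higher and 2132 lower genes of the table. Without a filter 1 copper enzyme was lower, beside 2713 higher and 3243 lower genes of the table. At 10 CPM, which leaves out Atp7a, 1162 genes of the table were higher and 1372 lower, with 3 copper handling genes higher and 0 lower, 2 of mitochondrial delivery, 1 COMMD and 0 death genes higher, and 1 metal-responsive gene lower. At 2-fold there were 514 higher and 1059 lower genes. The higher ones held 2 copper handling genes, 1 of mitochondrial delivery, 0 COMMD, 0 death and 1 other copper-binding gene, and the lower ones held 1 copper handling gene (Atp7a), 0 metal-responsive, 0 other copper-binding and 7 P-type ATPase genes. Adding 1 CPM left 0 death genes higher, beside 1679 higher and 2084 lower genes of the table.

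After correction for exon length 1509 genes of the table were higher and 1988 lower. The higher ones held 2 copper handling, 3 mitochondrial delivery, 1 copper enzyme and 0 death genes. The lower ones held 2 copper enzymes, 1 other copper-binding gene and 7 P-type ATPases. After correction for principal transcript length, added after the data were seen, 1016 genes of the table were higher and 1205 lower. It left 1 copper handling, 2 mitochondrial delivery, 1 copper enzyme, 0 death and 0 other copper-binding genes higher, and 2 COMMD, 1 copper enzyme, 0 metal-responsive, 0 other copper-binding and 5 P-type ATPase genes lower. The COMMD genes were Vps35l and Commd6, with uncorrected ratios of 0.980 and 0.976. Vps35l has 14648 bases of exons but a principal transcript of 608 bases, so its corrected value depends on the gene model. It stood at 0.64 in log2 by exon length and at -0.73 by principal transcript length, past 1.5-fold in opposite directions. The causes were not tested. Halving the counts for the interval changed no count of called genes by over 1.5 times.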
